A study of Homo sapiens with 12 samples.

Results

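The genes described here belong to the fibroblast growth factor (FGF) pathway: the receptors *FGFR1*, *FGFR2*, *FGFR3* and *FGFR4*, the ligands *FGF2* and *FGF19*, the ligand carrier *FGFBP1*, and the feedback genes *SPRY2*, *SPRY4* and *DUSP6*. They were taken by symbol from the deposited RPKM table (reads per kilobase of gene length, scaled by library size), in which these 10 are among 23346 genes. All 10 passed the filter on low values (mean over the 12 samples not under 0.1 RPKM), which 16236 genes passed. RNA-seq had been done on SW1990 and CFPAC-1, both established human pancreatic adenocarcinoma lines, to ask how cells that carry the GCTM-5 antigen differ from cells that lack it. GCTM-5 is a monoclonal antibody against a cell surface antigen. In each line the cells were stained with it and separated by flow cytometry into GCTM-5 positive and GCTM-5 negative cells, with 3 samples in each of the 4 groups. The gates took the strongly stained and the unstained cells, so cells between them were not sampled, and the labels name no treatment and no introduced mutation in any group. Each line is a single culture model, so a difference between SW1990 and CFPAC-1 cannot be told apart from anything else that differs between the cultures.

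FGFs are secreted ligands that bind receptor tyrosine kinases on the cell surface together with heparan sulfate, and the activated receptors signal through adaptor proteins to Ras and the ERK kinases. ERK activity raises transcription of Sprouty genes and of *DUSP6*, whose products dampen the same pathway, so these genes are widely used as a transcript readout of it. In epithelia *FGFR2* is typically expressed as the isoform that responds to ligands from the neighbouring stroma, and FGF signalling directs growth and branching of the pancreatic epithelium.

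Replicates correlated at 0.968 to 0.986 (Pearson's r within a group across genes, on the log2 scale), and library totals, recovered from the values, ran from 9969697 to 26159330 reads. The paper describes the replicates as repeated sorts of each line, and the labels give them a number only, so the p-values measure the spread between sorts of 1 line. The ductal epithelial markers expected of the labelled cell type were present in every group. The 6 of them (*KRT7*, *KRT8*, *KRT18*, *KRT19*, *EPCAM* and *CDH1*) summed to 1595 to 1942 RPKM in negative SW1990 samples, 4360 to 4841 in positive SW1990 samples, 5411 to 6173 in negative CFPAC-1 samples and 6676 to 8162 in positive CFPAC-1 samples. The 11 mesenchymal and fibroblast markers summed to 1258 to 1419, 176 to 358, 533 to 727 and 411 to 579 RPKM in the same order. *VIM* made up most of each sum, with means of 1208, 245, 598 and 463 RPKM. The fibroblast markers differed among themselves. In negative and positive SW1990 cells the means were 13.2 and 2.43 RPKM for *LUM*, 3.57 and 1.93 for *COL1A1* and 1.76 and 0.0381 for *PDGFRB*. In CFPAC-1 the means of these genes were at most 1.19 RPKM. *COL1A2*, *COL3A1*, *DCN* and *PDGFRA* had group means of at most 0.143 RPKM, and *THY1* was at 0 in every sample. Of the leukocyte markers, *PTPRC* and *CD3E* had group means of at most 0.0235 RPKM, while those of *CD68* were 21.7 to 138 RPKM and those of *CD14* 0.287 to 9.23 RPKM. Of the 4 endothelial markers *CDH5* fell in SW1990, from a mean of 15.6 to 1.33 RPKM, while *PECAM1*, *KDR* and *VWF* had group means of at most 0.878 RPKM. In SW1990, 5 of the 6 epithelial markers rose and 5 of the 6 mesenchymal markers that passed the filter fell with GCTM-5. In CFPAC-1, 2 of these 6 mesenchymal markers fell. Of all genes fitted, 4.59% rose and 7.48% fell in SW1990, and 5.65% rose and 4.13% fell in CFPAC-1. None of the 6 epithelial markers passed both thresholds given below in CFPAC-1, by limma or by voom on recovered reads. Of them, 3 had an unadjusted p under 0.05 in limma there. Those 3 were *KRT7*, *KRT8* and *KRT18*, higher in positive CFPAC-1 cells by 0.86, 0.70 and 0.70 on the log2 scale, under 2-fold (limma adjusted p = 0.00566, 0.00649 and 0.00103). In SW1990 the epithelial and mesenchymal markers moved with the *FGFR1*, *FGFR2* and *FGFBP1* values given below, and their part in those values was not tested. In CFPAC-1 the mesenchymal markers that fell were *ZEB1* (mean of 6.79 to 2.51 RPKM) and *SPARC* (0.330 to 0.00710 RPKM), while *FGFR1* rose. In sorted populations, fewer cells of a type and less RNA per cell cannot be told apart.

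RefSeq start sites on GRCh38.p14 were matched for 8 of the 10 genes (not for *FGFR1* and *FGF19*), with 15 windows of 250 bases before a start. The windows of *FGFR2* and *FGFBP1*, the genes that rose in positive SW1990 cells, and of *FGF2*, which rose in positive CFPAC-1 cells, are shown 5′ to 3′ on the gene's strand. For *FGFR2*, which has 5 windows, the one farthest upstream is given. Capitals mark GGGCGG on either strand, the core of the GC box bound by SP1-type factors.
FGFR2, chr10:121598445-121598694, minus strand: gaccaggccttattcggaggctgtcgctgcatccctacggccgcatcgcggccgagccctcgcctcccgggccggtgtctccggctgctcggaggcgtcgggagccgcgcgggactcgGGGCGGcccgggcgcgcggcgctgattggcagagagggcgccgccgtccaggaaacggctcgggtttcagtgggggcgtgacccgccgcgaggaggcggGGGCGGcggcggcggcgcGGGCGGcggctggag
FGFBP1, chr4:15938741-15938990, minus strand: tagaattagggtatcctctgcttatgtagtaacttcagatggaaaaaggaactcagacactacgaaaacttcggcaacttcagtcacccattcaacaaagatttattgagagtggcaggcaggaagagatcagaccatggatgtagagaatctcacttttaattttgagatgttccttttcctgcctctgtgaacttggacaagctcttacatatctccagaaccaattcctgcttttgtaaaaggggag
FGF2, chr4:122826581-122826830, plus strand: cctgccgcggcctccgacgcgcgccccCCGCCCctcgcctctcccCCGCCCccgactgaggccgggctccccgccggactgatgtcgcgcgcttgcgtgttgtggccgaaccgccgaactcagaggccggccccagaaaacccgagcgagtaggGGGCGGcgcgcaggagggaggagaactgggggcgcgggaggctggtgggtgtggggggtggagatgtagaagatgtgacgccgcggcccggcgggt
The windows differed in composition. Those of *FGFR2* and *FGF2* were 78.4% and 75.2% G and C with 42 and 33 CpG dinucleotides and 3 GC boxes each, whereas that of *FGFBP1* was 40.8% G and C with 2 CpG and no GC box. The median of 35116 RefSeq windows of the same length was 58.0% with 11 CpG, and 42.6% of them held GGGCGG. Neither CACCTG (the E-box bound by ZEB factors, in 17.5% of all windows), nor AACCNGTT (bound by GRHL factors, 1.49%), nor CCGGAA (bound by ETS factors, 14.5%), nor TATAAA (10.7%) was found on either strand of these 3 windows. The other 4 windows of *FGFR2* were 42.8% to 50% G and C with 3 to 7 CpG, nearer to that of *FGFBP1*, and 1 of them held a GC box and 1 the sequence CACCTG.

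On GRCh37 the receptor genes lie at chr8:38257733-38326352 (*FGFR1*, minus strand), chr10:123237846-123357972 (*FGFR2*, minus), chr4:1795020-1810599 (*FGFR3*, plus) and chr5:176513906-176525145 (*FGFR4*, plus). The carrier and the ligands lie at chr4:15937200-15940363 (*FGFBP1*, minus), chr4:123747837-123819391 (*FGF2*, plus) and chr11:69513006-69518790 (*FGF19*, minus). The feedback genes lie at chr13:80910111-80915261 (*SPRY2*, minus), chr5:141689992-141706020 (*SPRY4*, minus) and chr12:89741012-89746278 (*DUSP6*, minus). All 10 are protein-coding in GENCODE 44. An RPKM here is over a whole gene, so isoforms of a receptor were not resolved.

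The genes that passed the test were not the same in the 2 lines. In SW1990, *FGFR2* and *FGFBP1* rose and *FGFR1* fell in GCTM-5 positive cells. In CFPAC-1, *FGFR1* and *FGF2* rose and *FGF19* fell, so *FGFR1* passed in both lines, in opposite directions. *FGFR2*, *FGFBP1* and *SPRY4* had changes of the same sign in both lines with limma adjusted p under 0.05 in each, not all of them over 2-fold. The share of all genes that met this looser rule is not given here. None of the 10 passed the test itself in both lines in the same direction, against 1.84% of all genes fitted. A gene was taken as changed when it differed over 2-fold with an unadjusted p under 0.01 in limma, a linear model across all genes on log2(RPKM + 0.1). By this rule 3 of the 10 genes changed in SW1990, against 12.1% of all genes fitted (4.59% higher and 7.48% lower), and 3 of the 10 changed in CFPAC-1, against 9.78% (5.65% higher and 4.13% lower). Of all CFPAC-1 calls, positive cells had the higher value in 57.7% on the deposited scale and in 45.8% after each sample was centred on its median. The samples of positive and negative cells did not overlap for 6 of the 10 genes in each line, against 43.3% of all genes fitted in SW1990 and 48.5% in CFPAC-1, which is close to the background. The median change of the 10 genes on the log2 scale was −0.11 in SW1990, where that of all genes was −0.04, and 0.22 in CFPAC-1, where that of all genes was 0.05.

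**Figure D1:**
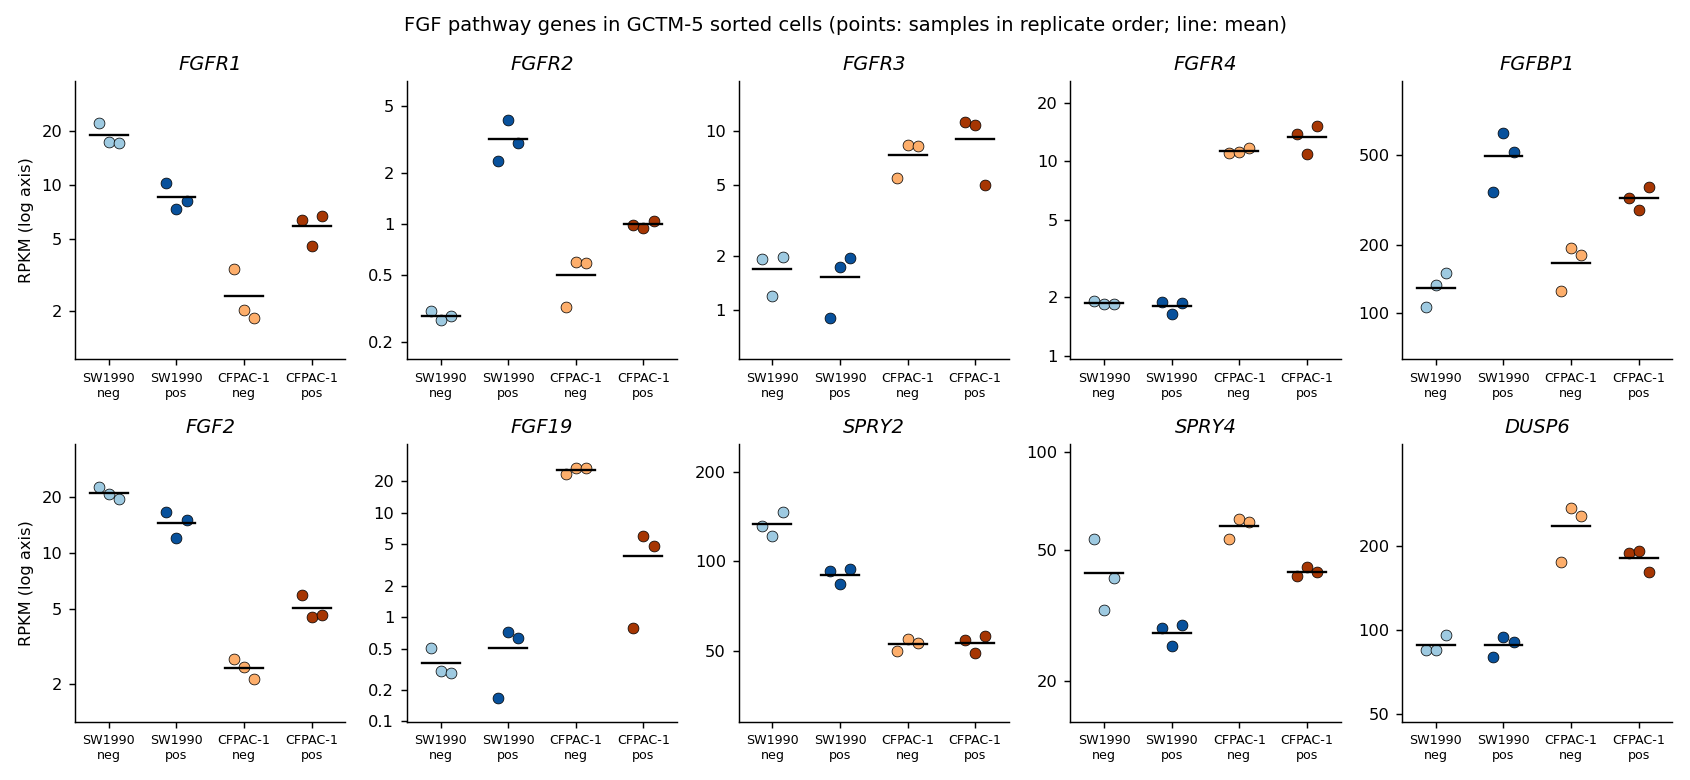
RPKM (log axis) of each of the 10 genes in the 12 samples, by line and GCTM-5 status (neg, negative; pos, positive). Points are samples in replicate order and lines are group means. *FGFR1* and *FGF2* have the same order of groups, with negative SW1990 highest and negative CFPAC-1 lowest, and *FGF19* is high in negative CFPAC-1 cells, at 23.6 to 27.1 RPKM.

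*FGFR1*, the receptor most often associated with mesenchymal cells, changed in opposite directions in the 2 lines. In SW1990 its RPKM was 22.2, 17.3 and 17.0 in negative cells and 10.3, 7.37 and 8.14 in positive cells. In CFPAC-1 it was 3.44, 2.02 and 1.84 in negative cells and 6.40, 4.58 and 6.70 in positive cells. The groups did not overlap in either line, and every CFPAC-1 sample was below every SW1990 sample. The log2 change was −1.13 (95% interval −1.63 to −0.62, limma adjusted p = 0.00303) in SW1990 and 1.28 (0.77 to 1.78, adjusted p = 0.00144) in CFPAC-1. The changes differed by −2.40 ± 0.33 (SE, limma adjusted p = 0.000289). Of all genes fitted, 0.678% were called in both lines in opposite directions, and *FGFR1* was the one such gene among the 10. The line difference in *FGFR1* was thus unequal between the sorted populations: negative SW1990 cells were 2.94 higher than negative CFPAC-1 cells on the log2 scale, and positive cells 0.54 higher, which did not pass the threshold. Negative CFPAC-1 replicate 1 had the highest *FGFR1* of its group, and without it the CFPAC-1 change was 1.54. On the opposite strand *FGFR1* shares 138 exon bases with *LETM2* and 387 with a long noncoding RNA that was not analysed here, and the use of strand in counting is not given in the sources used here. *LETM2* ranged in SW1990 from 4.82 to 5.74 RPKM (negative) and from 8.17 to 10.1 RPKM (positive), the opposite order to *FGFR1*. In CFPAC-1 its groups overlapped, at 5.06 to 6.45 RPKM (negative) and 5.36 to 7.43 RPKM (positive).

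*FGFR2*, the receptor typical of epithelia, had its largest value in positive SW1990 cells. Negative SW1990 cells gave 0.306, 0.270 and 0.284 RPKM, from 28 to 35 reads, and positive cells gave 2.36, 4.11 and 3.02 RPKM, from 255 to 389 reads. These groups were far apart, with means of 0.287 ± 0.018 and 3.16 ± 0.89 (SD, n = 3), an 11.04-fold ratio. The log2 change was 3.04 (95% interval 2.50 to 3.58, limma adjusted p = 2.94e-06), and 1.67 with a pseudocount of 1 in place of 0.1. Negative CFPAC-1 cells gave 0.323, 0.591 and 0.585 RPKM and positive cells 0.988, 0.946 and 1.04 RPKM. Here too the groups did not overlap, but the log2 change of 0.90 (0.36 to 1.44, limma adjusted p = 0.0142) was under 2-fold. It passed both thresholds, at 1.02 in each case, when either negative replicate 2 or negative replicate 3 was left out, and was 0.67 without negative replicate 1, the lowest of its group. The change in SW1990 exceeded that in CFPAC-1 by 2.14 ± 0.35 (SE, limma adjusted p = 0.000943).

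*FGFR3* and *FGFR4* followed the line and not the sort. *FGFR3* was at 1.92, 1.20 and 1.97 RPKM in negative and 0.906, 1.73 and 1.96 RPKM in positive SW1990 cells, against 5.42, 8.32 and 8.19 RPKM in negative and 11.1, 10.7 and 4.99 RPKM in positive CFPAC-1 cells. Within each line the sorted groups overlapped, and each CFPAC-1 sample was above each SW1990 sample. Its log2 change with GCTM-5 in SW1990 was −0.18 (95% interval −0.94 to 0.59), and in CFPAC-1 it was 0.23 (−0.53 to 0.99), intervals that admit changes of almost 2-fold. *FGFR4*, the receptor that binds FGF19, was at 1.90, 1.83 and 1.85 RPKM in negative and 1.89, 1.63 and 1.87 RPKM in positive SW1990 cells. In CFPAC-1 it was at 10.999, 11.2 and 11.7 RPKM in negative and 13.8, 10.97 and 15.3 RPKM in positive cells. The sorted groups overlapped in both lines and the intervals of the log2 change were narrower, −0.34 to 0.23 (SW1990) and −0.06 to 0.51 (CFPAC-1). In negative cells *FGFR3* was 2.05 and *FGFR4* 2.54 lower in SW1990 than in CFPAC-1 on the log2 scale (limma adjusted p = 0.000221 and 9.23e-09).

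The receptor make-up differed most plainly between the lines and, within SW1990, between the sorted cells. Since RPKM is per length, the 4 receptors were expressed as shares of their summed RPKM. In negative SW1990 samples *FGFR1* made up 80.5% to 84.3% of the sum and *FGFR2* 1.16% to 1.34%. In positive SW1990 samples *FGFR1* made up 49.7% to 66.6% and *FGFR2* 15.3% to 27.7%, so neither range met that of the negative samples. The ratio of *FGFR1* to *FGFR2* lay between 59.9 and 72.7 in the negative samples and between 1.79 and 4.36 in the positive ones. In CFPAC-1, *FGFR4* was the largest share, at 50.6% to 54.5% in negative and 40.3% to 54.5% in positive samples, and *FGFR3* was second in 5 of the 6 samples. There *FGFR1* took 8.22% to 17.0% in negative and 16.8% to 23.9% in positive samples, ranges that overlapped, while *FGFR2* took 1.60% to 2.67% and 3.06% to 3.73%, ranges that did not. The ratio of *FGFR1* to *FGFR2* overlapped between the sorted groups (3.14 to 10.7 and 4.84 to 6.48). The summed receptor RPKM was 20.6 to 26.4, 14.8 to 15.4, 20.2 to 22.4 and 27.2 to 32.3 in negative SW1990, positive SW1990, negative CFPAC-1 and positive CFPAC-1 samples.

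**Figure D2:**
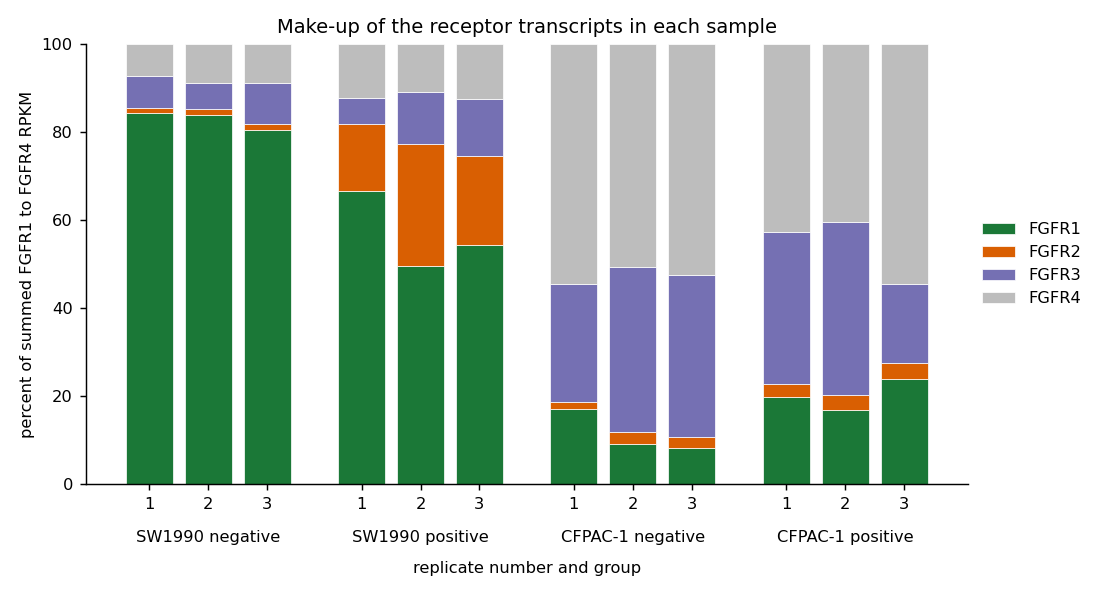
Share of each receptor in the summed RPKM of *FGFR1* to *FGFR4* (percent) in the 12 samples, by group and replicate number. *FGFR1* fills 80.5% to 84.3% of the bars of negative SW1990 cells, *FGFR2* is visible as a large block, 15.3% to 27.7%, only in positive SW1990 cells, and *FGFR4* is the largest block in CFPAC-1.

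*FGFBP1*, a secreted protein that releases FGFs from the matrix, was the most abundant of the 10 genes in positive cells of both lines. In SW1990 it was at 106, 132 and 150 RPKM in negative and 344, 623 and 515 RPKM in positive cells. In CFPAC-1 it was at 126, 193 and 181 RPKM in negative and 323, 286.5 and 359 RPKM in positive cells. The positive samples were above the negative samples in both lines. The log2 change was 1.90 (95% interval 1.42 to 2.38, limma adjusted p = 4.83e-05) in SW1990. In CFPAC-1 it was 0.97 (0.49 to 1.45, adjusted p = 0.00532), just under the 2-fold threshold, which it passed without negative replicate 2 (1.09), negative replicate 3 (1.05) or positive replicate 2 (1.06). The changes differed between the lines by 0.93 ± 0.31 (SE, limma adjusted p = 0.04495). This call was lost in 8 of the 12 fits that left out 1 sample, with adjusted p up to 0.108.

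**Figure D3:**
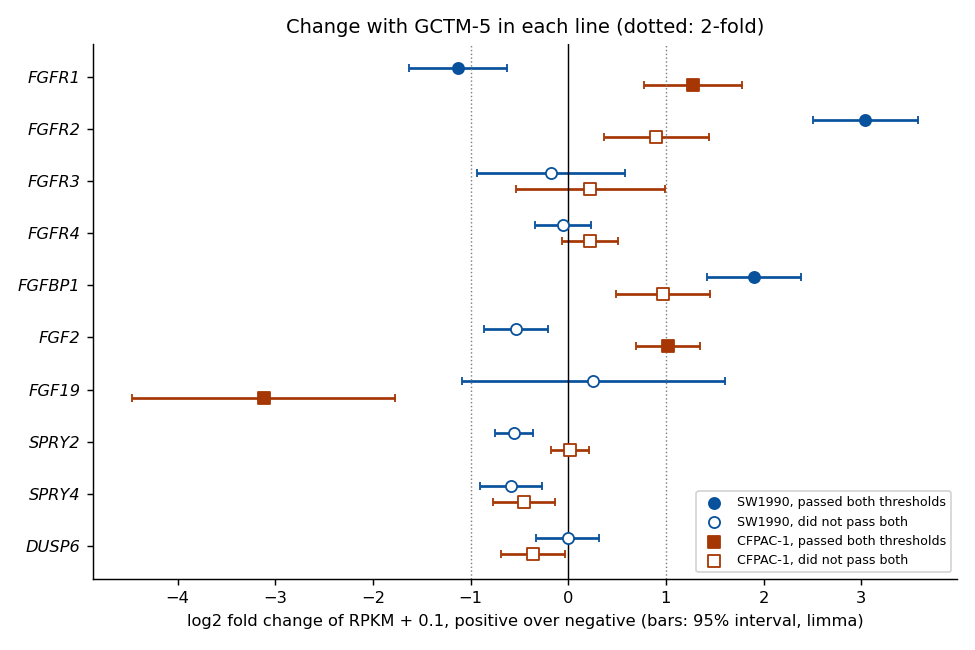
log2 fold change of RPKM + 0.1, positive over negative cells, of each gene in SW1990 (circles) and CFPAC-1 (squares), with 95% intervals from limma. Filled symbols passed both thresholds and dotted lines mark 2-fold. *FGFR1* lies at −1.13 in SW1990 and 1.28 in CFPAC-1, and *FGF19* has the widest intervals.

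*FGF2*, a ligand of several FGF receptors that is held near the cell by heparan sulfate, had the same order of groups as *FGFR1*. Its RPKM was 22.5, 20.6 and 19.5 in negative and 16.4, 12.1 and 14.9 in positive SW1990 cells, and 2.73, 2.46 and 2.13 in negative and 5.99, 4.55 and 4.66 in positive CFPAC-1 cells. All 4 groups were separate, from negative SW1990 through positive SW1990 and positive CFPAC-1 to negative CFPAC-1, an order that 1.32% of all genes fitted had without overlap. Only the order seen in these values was counted, so the share is a description and not a test. In CFPAC-1 *FGF2* rose by 1.02 on the log2 scale (95% interval 0.70 to 1.35, limma adjusted p = 0.000393). That value lies at the 2-fold threshold and was under it after median centring (0.92), after quantile normalization (0.97), with a pseudocount of 1 (0.81), without negative replicate 3 (0.93) and without positive replicate 1 (0.90). In SW1990 the log2 change was −0.53 (−0.86 to −0.21, adjusted p = 0.0183), under 2-fold. The changes of *FGF2* differed between the lines by −1.55 ± 0.21 (SE, limma adjusted p = 0.000281). *FGF2* shares 804 exon bases with *NUDT6* on the opposite strand, and without strand their reads cannot be told apart. *NUDT6* ranged from 20.8 to 21.1 RPKM (negative) and from 13.2 to 15.2 RPKM (positive) in SW1990. In CFPAC-1 it ranged from 5.92 to 7.13 RPKM (negative) and from 5.11 to 9.72 RPKM (positive), so its CFPAC-1 groups overlapped where those of *FGF2* did not.

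*FGF19*, a ligand of the hormone-like branch of the family that is best known from the gut-liver axis, was a gene of negative CFPAC-1 cells. There it was at 23.6, 27.1 and 26.7 RPKM, from 983 to 1265 reads. In positive CFPAC-1 cells it was at 0.787, 5.98 and 4.79 RPKM, from 44, 240 and 102 reads. All positive samples were below all negative samples, and the log2 change was −3.12 (95% interval −4.46 to −1.77, limma adjusted p = 0.00242). Positive replicate 1 was well below the other two, and without it the change was −2.25. In SW1990 *FGF19* was low in both groups, at 0.501, 0.302 and 0.291 RPKM in negative and 0.169, 0.717 and 0.634 RPKM in positive cells, from 7 to 26 reads. These groups overlapped, and the interval of the log2 change was −1.09 to 1.60. The changes differed between the lines by 3.38 ± 0.87 (SE, limma adjusted p = 0.0137). *KLB*, the co-receptor through which FGF19 acts on *FGFR4* in liver, had group means of 0.0351 to 0.0842 RPKM with at most 19 reads in a sample, and was picked for its role after its values had been seen. The 5 genes of the bile acid response that surrounds *FGF19* in the gut and liver (*NR1H4*, *NR0B2*, *CYP7A1*, *CYP8B1* and *SLC10A2*) all had a mean RPKM under 0.1 and were not fitted, with group means of at most 0.102 RPKM.

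The genes next to *FGF19* on chromosome 11, a segment that is amplified in many carcinomas, did not share its fall in CFPAC-1. Of 10 neighbours listed, 9 were matched by symbol and 7 were fitted. None passed both thresholds in CFPAC-1, by limma or by voom, and 4 had an unadjusted p under 0.05 in limma, all higher. *ANO1*, a chloride channel gene, rose in SW1990 by 1.06 on the log2 scale (limma adjusted p = 0.00583). It was the only neighbour called there, where 4.59% of all genes fitted rose. The log2 changes in CFPAC-1 were 0.66 for *MYEOV*, 0.67 for *CCND1* (cyclin D1), 0.48 for *ORAOV1*, 0.03 for *ANO1*, 0.23 for *FADD*, 0.42 for *PPFIA1* and 0.15 for *CTTN*, against −3.12 for *FGF19*. All 7 were above 0 on the deposited scale, but those of *ANO1*, *FADD* and *CTTN* were small (limma adjusted p = 0.944, 0.189 and 0.436). Their signs under other scalings are not given here. The paralogs *FGF3* and *FGF4*, which lie in the same segment, were not fitted: *FGF4* was at 0 in every sample and *FGF3* had 1 read in 1 sample.

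The feedback genes were abundant in every group and moved little. *SPRY2*, an inhibitor of receptor signalling, was at 131, 122 and 146 RPKM in negative and 92.8, 83.8 and 93.7 RPKM in positive SW1990 cells, groups that did not overlap. The log2 change of −0.56 (95% interval −0.75 to −0.36, limma adjusted p = 0.000559) was under 2-fold. In CFPAC-1 *SPRY2* was at 49.8, 54.5 and 52.9 RPKM in negative and 54.1, 49.0 and 56.0 RPKM in positive cells, groups that overlapped, with a log2 change of 0.02 (−0.18 to 0.21). The interval leaves little room for a change in CFPAC-1, and the changes differed between the lines by −0.57 ± 0.13 (SE, limma adjusted p = 0.0059).

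*SPRY4*, of the same inhibitor family, was below its negative counterpart in both lines without passing the fold threshold in either. It was at 54.3, 32.9 and 41.2 RPKM in negative and 28.9, 25.5 and 29.6 RPKM in positive SW1990 cells. In CFPAC-1 negative cells gave 54.3, 62.3 and 61.1 RPKM and positive cells 41.8, 44.6 and 42.9 RPKM. The groups were separate in both lines. The log2 changes were −0.58 (95% interval −0.90 to −0.26, limma adjusted p = 0.0104) and −0.46 (−0.77 to −0.14, adjusted p = 0.0295), and their difference was −0.13 (−0.58 to 0.32, adjusted p = 0.688).

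*DUSP6*, the phosphatase that inactivates ERK, was at 85.2, 85.0 and 96.3 RPKM in negative and 80.1, 94.6 and 90.8 RPKM in positive SW1990 cells. These groups overlapped, and the log2 change was −0.01 (95% interval −0.33 to 0.32). In CFPAC-1 it was at 176, 274 and 258 RPKM in negative and 190, 192 and 162 RPKM in positive cells. Negative replicate 1 lay among the positive samples, so the groups overlapped, and the log2 change of −0.36 (−0.69 to −0.03, limma adjusted p = 0.079) did not pass. That sample also stood apart in 8 immediate early genes, transcripts that rise first after ERK is activated (*FOS*, *EGR1* and others), which summed to 641 RPKM in it against 2230 and 1888 RPKM in negative replicates 2 and 3 and 615 to 989 RPKM in the positive samples. The part of those genes in the *DUSP6* value was not tested. Without this sample the *DUSP6* change in CFPAC-1 was −0.56, and its difference from the SW1990 change, 0.55, passed the threshold (limma adjusted p = 0.0235) that the difference over all samples, 0.35, did not. *DUSP6* shares 1105 exon bases with a long noncoding RNA on the opposite strand that was not analysed here.

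Over the lines, 6 of the 10 genes changed by different amounts with GCTM-5 in SW1990 and CFPAC-1 at a limma adjusted p under 0.05, as did 26.9% of all genes fitted (9.16% with the larger value in SW1990 and 17.8% with the smaller). The changes of *FGFR2*, *FGFBP1* and *FGF19* were higher in SW1990 and those of *FGFR1*, *FGF2* and *SPRY2* lower. No difference was called for *FGFR3*, *FGFR4*, *SPRY4* or *DUSP6*, which does not show that they responded alike. For *FGFR3* the interval of the difference ran from −1.48 to 0.67, the widest of these 4.

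Between the lines, 7 of the 10 genes differed in negative cells, against 36.9% of all genes fitted, and 6 differed in positive cells, against 28.5%. In negative cells *FGFR1*, *FGF2* and *SPRY2* were higher in SW1990, by 2.94, 3.05 and 1.34 on the log2 scale, and *FGFR3*, *FGFR4*, *FGF19* and *DUSP6* were lower, with values of −2.05, −2.54, −5.83 and −1.39. So 3 of the 10 were higher and 4 lower, against 21.9% and 15% of all genes fitted. In positive cells *FGFR2* and *FGF2* were higher in SW1990, by 1.54 and 1.495, and *FGFR3*, *FGFR4*, *FGF19* and *DUSP6* had values of −2.45, −2.82, −2.45 and −1.03. Over all genes the median difference in negative cells was 0.19, so the deposited scale places SW1990 slightly above CFPAC-1 there, whereas it was 0.06 in positive cells. So 2 of the 10 were higher and 4 lower in SW1990 in positive cells, against 14.8% and 13.7% of all genes fitted. The samples of the lines did not overlap for 9 of the 10 genes in negative and 9 in positive cells, against 75.2% and 63.9% of all genes. *FGFBP1* and *SPRY4* passed in neither population. For *FGFR2* the line difference passed in positive cells only, with SW1990 higher. In negative cells SW1990 was lower, without overlap, at −0.60 (95% interval −1.14 to −0.06, limma adjusted p = 0.0473), under 2-fold. The *FGF19* difference in positive cells, −2.45, had an unadjusted p above 0.01 without SW1990 positive replicate 1 (−1.94), CFPAC-1 positive replicate 2 (−1.94) or CFPAC-1 positive replicate 3 (−2.09). That of *DUSP6* was under 2-fold without SW1990 positive replicate 1 (−0.96), CFPAC-1 positive replicate 1 (−0.997) or CFPAC-1 positive replicate 2 (−0.99).

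The order of the group means shows which neighbours were apart. For *FGFR1*, *FGFR2* and *FGF2* all 4 groups were separate, with 7.74-, 11.04- and 8.55-fold between the highest and the lowest mean. For *FGFR3*, *FGFR4* and *DUSP6* both CFPAC-1 groups were above both SW1990 groups and the sorted groups overlapped within each line, with 5.84-, 7.43- and 2.67-fold between the extremes. *FGF19* had the widest span, 70.8-fold, and only its SW1990 groups overlapped. *FGFBP1* was ordered by sort, with positive SW1990 overlapping positive CFPAC-1 and negative CFPAC-1 overlapping negative SW1990. *SPRY2* separated into negative SW1990, positive SW1990 and an overlapping pair of CFPAC-1 groups, and *SPRY4* had negative CFPAC-1 highest and positive SW1990 lowest with the other two overlapping between them.

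The other genes of the pathway are given by lists. Of 9 receptor partners and decoys, which bind receptors at the membrane, 6 were fitted. In SW1990 none rose and 3 fell, against 4.59% and 7.48% of all genes fitted. The log2 changes were −2.36 for *FLRT2* (a membrane protein that binds FGF receptors), −2.17 for *CDH2* (N-cadherin) and −1.07 for *L1CAM* (a neural adhesion molecule). In CFPAC-1, where 4.13% of all genes fitted fell, *FLRT2* was the one that fell, with a log2 change of −1.41 (0.436 to 0.107 RPKM). The partners that fell in SW1990 did so beside *FGFR1*, and the mean of *FLRT2* was 7.41 RPKM (negative) and 1.42 RPKM (positive) there.

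Among 22 other FGF ligands and binding proteins, 10 were fitted. None changed in SW1990 by limma or by voom, where 12.1% of all genes fitted changed by limma, and 3 had an unadjusted p under 0.05 in limma. In CFPAC-1 *FGF12*, an intracellular member of the family that is not secreted, rose by 1.35 on the log2 scale (limma adjusted p = 0.00448), from 0.489 ± 0.158 to 1.41 ± 0.44 RPKM (SD, n = 3). It was the only one of the list called there, where 5.65% of all genes fitted rose. The stromal ligands *FGF7* and *FGF10*, which activate the epithelial form of *FGFR2*, had at most 1 read in a sample and 0 in every sample, respectively. They were named for their role after their values had been seen. The most abundant ligands in these lists were thus *FGF2* in SW1990 and *FGF19* in negative CFPAC-1 cells.

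Of the 12 enzymes that build or trim heparan sulfate, which FGFs need to bind their receptors, 2 changed in each line. Of all genes fitted, 12.1% changed in SW1990 and 9.78% in CFPAC-1. In SW1990 *HS3ST1*, a sulfotransferase, rose by 1.59 on the log2 scale. *SULF1*, a sulfatase that removes sulfate groups, fell from a mean of 0.452 to 0.0156 RPKM, the latter from 1 or 2 reads a sample. In CFPAC-1 *HS6ST1* fell by 1.20 (30.5 to 13.1 RPKM) and the sulfatase gene *SULF2* fell by 1.11. The line difference in *HS6ST2*, read after its values had been seen, was complete: it was at 0 in all SW1990 samples and at group means of 43.0 and 37.8 RPKM in CFPAC-1.

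None of the 20 adaptors and Ras-ERK transducers, all fitted, changed in either line, by limma or by voom. By limma 12.1% of all genes fitted changed in SW1990 and 9.78% in CFPAC-1. Of the 20, 10 in SW1990 and 12 in CFPAC-1 had an unadjusted p under 0.05 in limma. The median log2 change of the 20 was −0.17 in SW1990 and −0.02 in CFPAC-1. The largest change among them was 0.77 on the log2 scale in SW1990 and 0.90 in CFPAC-1.

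The other ERK feedback and target genes, 16 of 17 fitted, were mixed in SW1990. There 1 was called higher and 3 lower, against 4.59% and 7.48% of all genes fitted. *DUSP5*, a nuclear ERK phosphatase, rose by 1.18 (limma adjusted p = 5.06e-05), while *EPHA4* (an ephrin receptor), *ETV5* and *ETV1* (ETS factors of the PEA3 group) fell, with log2 changes of −2.05, −1.38 and −1.35. In CFPAC-1 none passed both thresholds by limma or by voom, where 9.78% of all genes fitted passed by limma. There 12 had an unadjusted p under 0.05 in limma, 10 of them lower and 2 higher. The median change there was −0.39, where that of all genes was 0.05. In SW1990 the mean of *DUSP5* was 25.1 (negative) and 57.3 RPKM (positive), and in CFPAC-1 it was 76.1 (negative) and 40.4 RPKM (positive), and its changes differed between the lines by 2.12 on the log2 scale (limma adjusted p = 2.21e-05). In all, 8 of the 16 differed between the lines, against 26.9% of all genes fitted. Of these, 6 had the higher change in SW1990 and 2 the lower, against 9.16% and 17.8% of all genes fitted. *SPRY2*, *SPRY4* and *DUSP6* thus lay among genes of their kind that did not share 1 direction in SW1990.

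**Figure D4:**
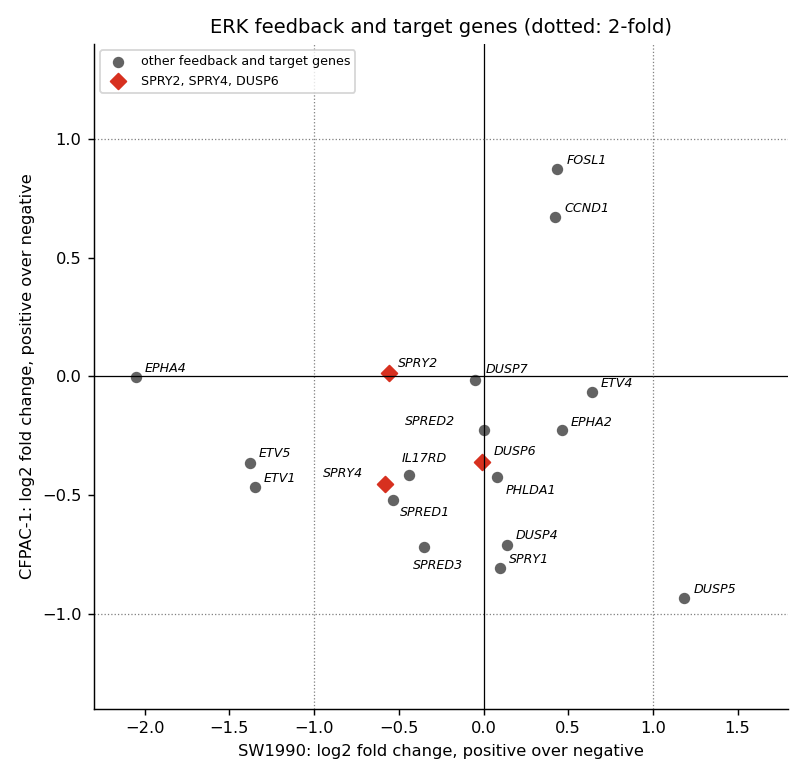
log2 fold change, positive over negative cells, in SW1990 (x axis) and CFPAC-1 (y axis) of *SPRY2*, *SPRY4* and *DUSP6* (diamonds) and 16 other ERK feedback and target genes (circles). Dotted lines mark 2-fold. *EPHA4*, *ETV5* and *ETV1* lie beyond 2-fold on the lower side in SW1990 and *DUSP5* on the upper side, and no point is beyond 2-fold in CFPAC-1.

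The regulators of *FGFR2* exon choice were measured because ESRP proteins favour the epithelial exon of *FGFR2*. *ESRP1* rose by 3.56 (5.70 to 65.6 RPKM, limma adjusted p = 2.69e-07) and *ESRP2* by 1.90 (7.23 to 27.2 RPKM, adjusted p = 1.42e-06) on the log2 scale in positive SW1990 cells, beside the rise of *FGFR2*. *RBFOX2* and *PTBP1* had changes of −0.54 and 0.16. In CFPAC-1 none of the 4 passed both thresholds by limma or by voom, and 2 had an unadjusted p under 0.05 in limma. The log2 changes there were 0.09 for *ESRP1*, 0.77 for *ESRP2*, −0.07 for *RBFOX2* and 0.63 for *PTBP1*. The RPKM values do not show which exon of *FGFR2* was used.

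For each receptor and ligand, the genes most like it were found by Pearson's r of log2(RPKM + 0.1) over the 12 samples among the 13266 genes whose mean RPKM reached 1. These points share libraries and 2 lines, so r is a description. For *FGFR1* they were *PHF16* (r = 0.989) and *C14orf135* (0.981), and *PRKRIR* (0.994) was among those of *FGF2*. For *FGFR2* they were *GJB5*, a connexin gene (0.973), and *ESRP2* (0.967). *GJB5* was at mean RPKM of 7.22, 29.5, 9.26 and 14.2 in negative SW1990, positive SW1990, negative CFPAC-1 and positive CFPAC-1 cells, so it shared the peak of *FGFR2* in positive SW1990 cells. For *FGFR3* they were *C17orf58* (0.983) and *CRADD* (0.980), and for *FGFR4* the transcription factor genes *FOXC2* (0.998) and *DMRT2* (0.997), both at or near 0 in SW1990. For *FGF19* they were *NUMB* (0.977) and *ARIH1* (0.976), with a mean *NUMB* of 93.3 RPKM (negative) and 56.8 RPKM (positive) in CFPAC-1.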

How the data were processed

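RNA-seq of 12 samples was used, 3 from each of 4 groups set by the labelled line and GCTM-5 status. The deposited RPKM values were made by the authors, who aligned reads to hg19/GRCh37 and normalized counts by library size and gene length with QuasR. Its version, the annotation and the use of strand are not given in the sources used here. The paper and the labels name different library kits, secondary antibodies and media.

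Library totals (9969697 to 26159330 reads) and whole reads were recovered from the values with gene lengths from GENCODE 44, to within 0.001 of a read for 19654 of 19654 genes above 0. The recovery and the fit were tested on simulated data.

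The log2 of RPKM plus 0.1 was fitted for 16236 genes (mean RPKM of at least 0.1) in R 4.3.3 with limma 3.58.1, as 4 group means with an intensity trend, 2-sided, with Benjamini-Hochberg adjustment over all genes. A change was called at over 2-fold and unadjusted p under 0.01 (the paper states both numbers but not whether its p was adjusted), and a difference between lines at adjusted p under 0.05. TCC, which the paper names, was not used. The 10 genes and the lists were chosen with earlier results of these data known. From each list, the called genes with the largest rise and fall per line were named, and all genes of lists of at most 6 and of the chromosome 11 list. Some genes under this rule are not reported here. Alternatives were other pseudocounts, filters, scalings and thresholds, no trend, 6-sample fits, a replicate block, voom and each sample left out. Samples were left unpaired. Other steps used Python 3.11.15 (numba 0.67.0, numpy 2.4.6, pandas 2.3.3) and figures matplotlib 3.10.9.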

Additional observations from a re-analysis of the deposited data

Results flagged for a closer look

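For 6 of the 10 genes the change with GCTM-5 differed between SW1990 and CFPAC-1 when that difference was itself tested in limma, at an adjusted p under 0.05. The same held for 26.9% of all genes fitted. Each value is the log2 change in SW1990 minus that in CFPAC-1. It was −2.40 for *FGFR1* (adjusted p = 0.000289), 2.14 for *FGFR2* (0.000943) and 0.93 for *FGFBP1* (0.04495). It was −1.55 for *FGF2* (0.000281), 3.38 for *FGF19* (0.0137) and −0.57 for *SPRY2* (0.0059). *FGFR1* was called lower in positive SW1990 cells and higher in positive CFPAC-1 cells, while *FGF19* was called lower in positive CFPAC-1 cells and rested on 7 to 26 reads a sample in SW1990.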

How the results depend on the processing

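Of 1150 alternative values of the 10 genes over 5 comparisons, 1094 kept their direction and their side of the threshold, and 29 of the 50 values did so in every alternative. Other filters and thresholds, no trend, 6-sample fits and the replicate block left each log2 change as it was, so its direction could not turn there. Leaving out a sample of 1 line likewise left the sorted change in the other line as it was. Without a fold threshold 6 genes were called in each line in place of 3, and the share of all genes under that rule is not given here. Leaving out 1 sample gave 3 calls throughout in SW1990 and 2 to 5 in CFPAC-1, where 5 came without negative replicate 2. It gave 5 to 7 for the difference between lines, 7 throughout in negative and 4 to 6 in positive cells between lines. Shares of all genes in those fits are not given here either, so the counts show only how the calls shifted. Changes near 0 that were not called turned sign. With each sample centred on its median, *DUSP6* was 0.0423 in SW1990, *SPRY2* −0.0844 in CFPAC-1 and the *SPRY4* difference 0.0203. With quantile normalization *FGFR3* and *FGFR4* were 0.0295 and 0.131 in SW1990, *SPRY2* −0.0916 in CFPAC-1 and the *FGFR4* difference 0.0244. With 1 sample left out, the SW1990 change ran from −0.0564 to 0.0638 for *DUSP6*, −0.39 to 0.14 for *FGFR3*, −0.0888 to 0.0104 for *FGFR4* and −0.0355 to 0.766 for *FGF19*. That of *SPRY2* in CFPAC-1 ran from −0.0251 to 0.0714 and the *SPRY4* difference from −0.302 to 0.0579. The *FGFBP1* difference was also lost with a pseudocount of 0.01, without a filter and without the trend (adjusted p = 0.0511, 0.0597 and 0.0664 in limma). The *FGFR2* change in CFPAC-1 passed both thresholds with a pseudocount of 0.01 (1.03) and by voom (1.02), and the *FGF19* difference between positive cells did not when those 6 samples were fitted alone or by voom. The causes were not tested. The numbers did not pair the samples (correlations of same-numbered deviations −0.06 to 0.18). With the replicate block, 3, 3 and 6 of the 10 genes were called in SW1990, in CFPAC-1 and for the difference, and over all genes 1961, 1587 and 4130 in place of 1961, 1588 and 4374.

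Few reads lie behind *FGF19* in SW1990 (7 to 26 a sample) and *FGFR2* in negative cells (28 to 72 a sample). Values for genes that overlap another on the opposite strand (*FGF2*, *FGFR1*, *DUSP6*) rest on a strand setting that is not given in the sources used here.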
